A study of Mus musculus with 6 samples.

Results

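Genes of the Notch pathway were examined in EpCAM-high cells of the mouse thoracic oesophagus. The 10 members were chosen by gene symbol: the receptors Notch1, Notch2 and Notch3, the ligands Jag1, Jag2 and Dll1, the receptor-modifying enzyme Lfng, the coactivator Maml3, and the target genes Hes1 and Hey1. Each symbol matched 1 of the 52636 gene IDs deposited. The mice carried Krt5-CreERT2:R26SmoM2/EYFP (K5:Smo), in which tamoxifen-activated Cre, driven by the keratin 5 promoter, switches on SmoM2, a constantly active Smoothened, in keratin 5-expressing cells. Cells were taken 12 weeks after tamoxifen. The untreated group has 3 libraries, and the ibuprofen group, whose mice drank this cyclooxygenase inhibitor at 0.6 g/l, has 3. Both groups thus carry active Hedgehog signalling, and no group without SmoM2 was analysed here. Neither the age of the mice nor whether each library came from a separate animal is given in the sources used here. P-values therefore measure only the spread between these libraries, which may be technical. Only the untreated samples are titled as epithelial cells.

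Notch signalling passes between touching cells. A Jagged or Delta-like ligand on one cell binds a Notch receptor on its neighbour, proteases including γ-secretase release the receptor's intracellular part, and this part enters the nucleus, joins the DNA-binding protein RBPJ and a Mastermind-like coactivator, and switches on Hes and Hey repressor genes. In stratified squamous epithelia such as the oesophagus, Notch activity is known for promoting the step from the dividing basal layer to differentiation. Fringe enzymes such as Lfng add sugars to the receptors and shift their preference between Delta-like and Jagged ligands.

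The values were deposited as CPM, reads of a gene scaled to a fixed total of reads assigned to genes, and the reads behind them, estimated from the steps between values, numbered 6361286 to 8764370 per library. The epithelial markers Epcam, Cdh1, Krt5, Krt14 and Trp63 summed to 7100 to 8610 CPM in the untreated and 6140 to 6900 CPM in the ibuprofen libraries. The largest parts were Krt5 (3620 ± 439 and 2880 ± 225 CPM, SD, n = 3) and Krt14 (2130 ± 432 and 1450 ± 121 CPM). Trp63 (1370 ± 173 and 1320 ± 124 CPM), Cdh1 (602 ± 29.7 and 634 ± 44.1 CPM) and Epcam (261 ± 26 and 259 ± 22.7 CPM) overlapped between groups. Krt5 overlapped too, and Krt14 did not. Endothelial markers, 12 genes, summed to 17.4 to 20.1 and 18.9 to 25.5 CPM, with none at 0 in all libraries. Fibroblast markers, 7 genes, summed to 43.9 to 86.9 and 66.1 to 145 CPM, immune markers, 9 genes, to 15.8 to 19.6 and 18.1 to 26.2 CPM, and Schwann and neural markers, 6 genes, to 68.8 to 110.0 and 72 to 109 CPM. Pericyte and smooth muscle markers (7 genes) and skeletal muscle markers (5 genes) stayed under 14 CPM in sum. Of the markers other than epithelial, the most abundant was Ngfr of the neural list, which basal cells of the oesophagus can also express (90.2 ± 20.9 and 85.9 ± 19.3 CPM). The fibroblast gene Dcn (48.1 ± 19.6 and 68 ± 17.8 CPM) and the endothelial gene Pecam1 (11.5 ± 1.02 and 14.4 ± 1.98 CPM) followed. Only 3 of the 12 endothelial genes had at least 1 CPM in at least 3 libraries. The fibroblast sum of 145 CPM was ibuprofen replicate 1, against 98.7 and 66.1 CPM in ibuprofen replicates 2 and 3. Of all these markers, Adgre1, Cd207 and Myh4 were at 0 in every library. The part of these cells in the results below was not tested, and in bulk RNA fewer cells of a type and less RNA per cell cannot be told apart. The library names carry 1 code for all untreated and another for all ibuprofen libraries. Their meaning is unknown here, so a batch marked by these codes and the treatment cannot be told apart.

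RNA of 9 of the 10 members was well detected in both groups, and no member passed the test for a difference between ibuprofen and untreated cells. Genes with at least 1 CPM in at least 3 libraries were tested, 16684 in all, with limma on log2(CPM + 1) and Benjamini-Hochberg adjustment over these genes, and were called at an adjusted p under 0.05. The 9 tested members gave 0 calls, and Hey1 was too low to be tested. Over all tested genes 0.521% were called, 50 (0.3%) with higher and 37 (0.222%) with lower values in ibuprofen libraries. At an unadjusted limma p under 0.05 there were 4 of the 9 members, Maml3, Jag1, Jag2 and Lfng, against 17.9% of all tested genes. The groups did not overlap for Maml3 and Jag1, both higher with ibuprofen, and for Lfng, lower. Over all tested genes 22.9% had groups without overlap, 14.2% higher and 8.73% lower. The median log2 fold change was 0.062 over the 9 members and 0.043 over all tested genes. Fold changes below give ibuprofen minus untreated as log2(CPM + 1), with standard errors (SE) and 95% intervals from limma, and means carry standard deviations (SD) with n = 3.

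**Figure D1:**
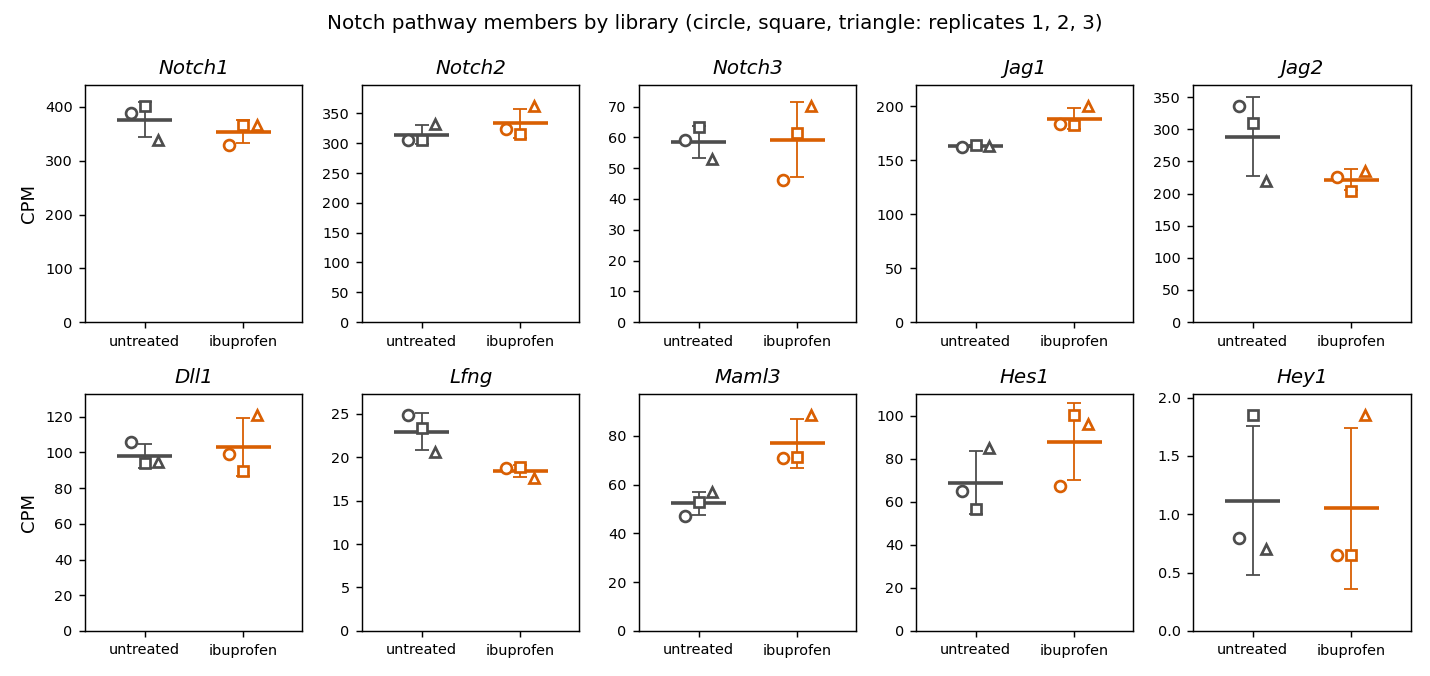
CPM of the 10 members in each library, untreated in grey and ibuprofen in orange, with the mean (bar) and SD (whisker) of 3 libraries and every axis starting at 0. Maml3 and Jag1 are higher and Lfng lower in all 3 ibuprofen libraries, and the other members overlap between groups.

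The receptors were at similar levels in both groups. Notch1, the main receptor of squamous epithelia, had 388, 401 and 339 CPM in untreated replicates 1, 2 and 3 and 329, 366 and 367 CPM in the ibuprofen replicates. The ibuprofen values of replicates 2 and 3 lay between those of the untreated libraries. Its log2 fold change was -0.08 ± 0.10 (SE), with an interval of -0.31 to 0.15 and a limma adjusted p of 0.692. Notch2, expressed in many tissues, had 306, 305 and 332 CPM untreated, against 324, 316 and 362 CPM with ibuprofen, a log2 fold change of 0.08 ± 0.10 with an interval of -0.13 to 0.30. Notch3, which in skin is found mainly above the basal layer, had 59.1, 63.4 and 53 CPM untreated. Its ibuprofen values of 46.1, 61.5 and 70.1 CPM spanned a wider range that took in all untreated values, and the interval of its log2 fold change ran from -0.33 to 0.33. The limma adjusted p was 0.677 for Notch2 and 0.998 for Notch3. An exon of each receptor gene overlaps another annotated gene, and the strand setting of the authors' counting is not given in the sources used here, so reads in the overlaps cannot be assigned with certainty. These are 0610009E02Rik (33 to 47.5 CPM) and Gm13568 (8.04 to 10.8 CPM) on the strand opposite to Notch1, Gm17276 (5.55 to 9.64 CPM) opposite to Notch3, and Gm42820 (24.4 to 35.8 CPM) on the strand of Notch2. The fourth receptor gene, Notch4, known from endothelium, averaged 0.2 ± 0.18 CPM untreated and 0.666 ± 0.583 CPM with ibuprofen (SD, n = 3), at 0 to 11 estimated reads per library.

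Among the ligands Jag1 had a positive and Jag2 a negative fold change, and neither was called. Jag1, a ligand for all the Notch receptors, had 162, 164 and 163 CPM in the untreated libraries and 184, 182 and 199.6 CPM in the ibuprofen libraries. All ibuprofen values lay above all untreated values, by a small step. The log2 fold change was 0.21 ± 0.09 (SE), or 1.15-fold with an interval of 1.00 to 1.33, and the limma adjusted p was 0.276. Jag2, the other Jagged ligand, had 335, 310.2 and 219 CPM untreated, against 225, 204 and 235 CPM with ibuprofen. Untreated replicates 1 and 2 stood above all other libraries, and untreated replicate 3 lay among the ibuprofen values. Its log2 fold change was -0.36 ± 0.15, with an interval of -0.68 to -0.03 and a limma adjusted p of 0.241. Without untreated replicate 3 it was -0.54 (limma adjusted p = 0.0366), without replicate 1 -0.24 (limma adjusted p = 0.561) and without replicate 2 -0.29 (limma adjusted p = 0.5). After a correction of each library for transcript GC content it was -0.27 (limma adjusted p = 0.2).

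The relation of expression to GC content was not the same in all libraries, and Jag2 has the highest transcript GC of the members, 61.9% against a median of 49.3% in all tested genes. Across 16646 genes, each library's deviation from the 6-library mean was ranked against GC content. Spearman's rho was 0.47, 0.19 and -0.28 for untreated replicates 1, 2 and 3, and -0.25, -0.32 and -0.09 for the ibuprofen replicates, a description of the libraries only, since genes are not independent. The basal keratin Krt14 was, like Jag2, high in untreated replicates 1 and 2, with 2392, 2372 and 1634 CPM untreated, against 1426, 1578 and 1339 CPM with ibuprofen. The basal gene Trp63 was not, with 1175, 1493 and 1450 CPM untreated, against 1446, 1326 and 1197 CPM with ibuprofen. Of the 7 genes listed as basal, 5 had negative and 2 had positive fold changes. The part of the basal cell share in the Jag2 values was not tested. Dll1, a Delta-like ligand that activates Notch in neighbouring cells, had 106, 93.9 and 94.7 CPM untreated, against 99, 89.4 and 121 CPM with ibuprofen. Ibuprofen replicate 3 was the highest and ibuprofen replicate 2 the lowest library, and the log2 fold change was 0.06 ± 0.12, with an interval of -0.21 to 0.33. A930024N18Rik, at 25.8 to 36 CPM, overlaps Dll1 exons on the opposite strand. Other ligand genes were near the detection limit. Dll4, an endothelial ligand, averaged 0.317 ± 0.0577 and 0.783 ± 0.561 CPM, and Dll3 0.2 ± 0.05 and 0.516 ± 0.55 CPM.

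Lfng, the Lunatic fringe glycosyltransferase, had 24.8, 23.3 and 20.6 CPM untreated, against 18.7, 18.8 and 17.6 CPM with ibuprofen. Every ibuprofen value lay below every untreated value, and the gap from untreated replicate 3 to the next ibuprofen library was smaller than the spread among the untreated libraries. The log2 fold change was -0.30 ± 0.13 (SE), with an interval of -0.60 to -0.01 and a limma adjusted p of 0.271. The gene rested on 145 to 204 estimated reads per library.

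Maml3, a Mastermind-like coactivator of the Notch transcription complex, had the smallest p and the largest fold change of the members. It had 47.3, 53.1 and 56.8 CPM untreated, against 70.8, 71.4 and 88.5 CPM with ibuprofen. The untreated libraries lay within 10 CPM of each other, and the ibuprofen libraries all lay above them. The log2 fold change was 0.54 ± 0.12 (SE), or 1.46-fold with an interval of 1.20 to 1.76, and the limma adjusted p was 0.0852, rank 225 by p among the 16684 tested genes. Leaving out untreated replicate 3 gave 0.60 (limma adjusted p = 0.0481), and leaving out any other library kept the adjusted p above 0.05. Maml3 is also the longest member in the genome, spanning 419 kb against a median of 15.9 kb for all tested genes. Its log2 fold change was 0.52 after the GC correction and 0.41 after a correction for exon length.

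The target genes were Hes1, a basic helix-loop-helix repressor induced by Notch in many tissues, and Hey1, a related repressor. Hes1 had 65.1, 56.5 and 85.2 CPM untreated, against 67.4, 100.3 and 96.4 CPM with ibuprofen. Ibuprofen replicates 2 and 3 stood above all untreated libraries, and ibuprofen replicate 1 among them. The log2 fold change was 0.35 ± 0.18 (SE), with an interval of -0.04 to 0.74 and a limma adjusted p of 0.326. With 1 library left out it ran from 0.22 (without untreated replicate 2) to 0.53 (without ibuprofen replicate 1). Hey1 had 0.799, 1.85 and 0.7 CPM untreated, against 0.65, 0.65 and 1.85 CPM with ibuprofen, at 5 to 16 estimated reads per library. These few reads put 1 library of each group at the same higher value, and no fold change is given. A value of 0 would still allow 3 reads, or 0.342 to 0.472 CPM by library, which Hey1 exceeded in all 6, and this limit covers counting error only.

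The sequences upstream of Maml3, Jag1 and Lfng are shown because these were the members whose groups did not overlap. RefSeq windows on GRCm38.p6, from 250 bases before to 50 after the annotated start, were found for 8 of the 10 members, in 9 windows, and not for Hes1 and Hey1. They are printed on the gene's strand, with capitals marking TGGGAA, the core word of the RBPJ motif, or TTCCCA, its reverse complement.
Maml3 promoter window, chr3:52104957-52105256, minus strand: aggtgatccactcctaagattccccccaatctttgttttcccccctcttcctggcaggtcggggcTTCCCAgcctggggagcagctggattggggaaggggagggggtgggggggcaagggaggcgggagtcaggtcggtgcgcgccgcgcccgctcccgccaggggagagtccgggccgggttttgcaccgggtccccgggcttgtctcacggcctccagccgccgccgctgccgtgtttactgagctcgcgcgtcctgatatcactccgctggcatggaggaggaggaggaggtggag
Jag1 promoter window, chr2:137116471-137116770, minus strand: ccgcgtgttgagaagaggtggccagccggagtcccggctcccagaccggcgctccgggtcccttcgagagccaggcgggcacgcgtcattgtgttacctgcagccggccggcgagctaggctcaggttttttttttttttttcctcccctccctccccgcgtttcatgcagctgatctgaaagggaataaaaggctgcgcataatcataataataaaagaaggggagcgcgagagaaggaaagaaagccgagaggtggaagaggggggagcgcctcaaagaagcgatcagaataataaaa
Lfng promoter window, chr5:140607091-140607390, plus strand: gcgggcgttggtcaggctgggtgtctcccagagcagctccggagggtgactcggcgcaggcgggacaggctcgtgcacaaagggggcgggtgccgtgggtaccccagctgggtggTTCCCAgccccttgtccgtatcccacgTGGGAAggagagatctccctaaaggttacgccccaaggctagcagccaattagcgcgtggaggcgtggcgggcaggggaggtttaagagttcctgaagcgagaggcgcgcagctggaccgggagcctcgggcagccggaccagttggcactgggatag
The word occurred once in the Maml3 window, in reverse at -185 to -180 (the first transcribed base counted as 0), and not in the Jag1 window. In the Lfng window it occurred in reverse at -135 to -130 and forward at -108 to -103. Of all 32851 windows of 300 bases searched on both strands, 25.6% held it, and of the 8 members with a window Maml3 and Lfng did. The N-box word CACNAG, bound by Hes proteins, occurred in windows of 5 of the 8 members (Notch1, Notch2, Notch3, Dll1 and Lfng), against 42.5% of all windows, and overlapped no RBPJ word there. Dll1 had more than 1 window, and only 1 of them held the N-box word. Both shares of all windows count windows, while the member counts are genes. A match of letters describes the window and does not show binding.

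Levels of different genes were compared as CPM per kb of merged exons, a level and not a difference. In untreated cells Jag2 (41.4 ± 8.79 CPM per kb, SD, n = 3) and Hes1 (33.8 ± 7.23) came first, followed by Notch2 (29.1 ± 1.45), Jag1 (28 ± 0.165), Notch1 (26.4 ± 2.28) and Dll1 (23.3 ± 1.56). The ranges of neighbours in this order overlapped over the 6 libraries. Farther apart, the lowest Jag2 library (29.2) lay above the highest of Dll1 (28.6) and of Notch1 (28.2), and the lowest Notch2 library (28.3) just above Notch1. Per kb of the longest transcript Jag2 stayed above Dll1 in the same way (39.9 against 33.8), but its range overlapped that of Notch1 (34.7 to 42.3), and Notch1 lay above Notch2 (29 to 34.4). A step lower lay Lfng (9.16 ± 0.849), Notch3 (7.23 ± 0.646) and Maml3 (5 ± 0.456), whose ranges overlapped in turn, from 4.51 to 9.91 CPM per kb. Hey1 was lowest, at 0.342 ± 0.195 CPM per kb. With ibuprofen Hes1 (43.2 ± 8.84), Jag1 (32.3 ± 1.66) and Jag2 (31.8 ± 2.32) came first. Of the summed level of Notch1, Notch2 and Notch3 per kb, Notch1 made up 39% to 43.8% in untreated and 37.9% to 41.1% in ibuprofen libraries, Notch2 44% to 50.3% and 46.8% to 51%, and Notch3 10.7% to 12.2% and 9.68% to 12.7%. All 3 shares overlapped between the groups.

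**Figure D2:**
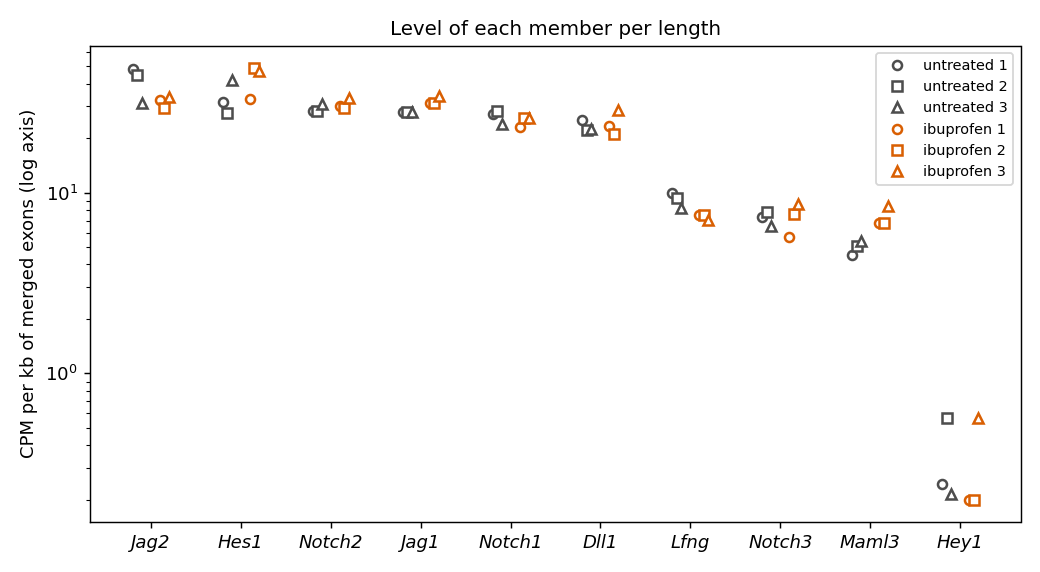
Level of each member in CPM per kb of merged exons (log axis) in each of the 6 libraries, ordered by the untreated mean. The first 6 members lie between 21.2 and 49.3 CPM per kb, Lfng, Notch3 and Maml3 between 4.51 and 9.91, and Hey1 below 0.6.

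The rest of the pathway also gave no call. Of 58 other genes listed by their role, 45 were tested and 0 were called in either direction, against 0.521% of all tested genes. At an unadjusted limma p under 0.05 there were 7 of the 45, against 17.9% of all tested genes. The median log2 fold change of the 45 was 0.024, with 24 above and 21 below 0. Without overlap between groups 7 were higher and 5 lower, against 14.2% and 8.73% of all tested genes. The 13 untested genes, Dlk1, Dll3, Dll4, Dner, Notch4, Mfng, Dtx1, Bend6, Hes3, Hes5, Hes7, Hey2 and Heyl, averaged at most 1.25 CPM in either group (Heyl untreated).

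Of the genes acting before receptor cleavage, those for glycosylation gave 1 positive and 3 negative fold changes. Eogt, which adds O-linked GlcNAc to Notch repeats, had 50.9, 60.2 and 65.3 CPM untreated, against 75.7, 75.6 and 69.6 CPM with ibuprofen, without overlap (log2 fold change 0.33 ± 0.12, limma adjusted p = 0.198). The fringe gene Rfng and the O-fucosyltransferase gene Pofut1 had -0.22 ± 0.13 and -0.17 ± 0.15. Among 6 genes for ligand uptake, Mib1, the ubiquitin ligase that drives ligand endocytosis, was the most abundant, at 214 ± 12.8 and 233 ± 3.56 CPM. Its log2 fold change of 0.13 ± 0.09 turned to -0.027 after the GC correction and -0.0085 after the exon length correction. Mib2 had -0.22 ± 0.14, and the neuralized genes Neurl1a and Neurl1b had 0.38 ± 0.27 and -0.51 ± 0.22. Single libraries moved both, Neurl1a to 0.11 without untreated replicate 1 and 0.60 without untreated replicate 3, and Neurl1b to -0.22 without ibuprofen replicate 3 and -0.72 without ibuprofen replicate 1. The non-canonical ligand gene Dlk2 had 26.7 ± 3.18 and 25.3 ± 5.69 CPM.

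Receptor cleavage was represented by 10 tested genes, with 5 positive and 5 negative fold changes. Psen2, which encodes a catalytic subunit of γ-secretase, had 3.15, 5.65 and 3.65 CPM untreated, against 2.35, 1.95 and 2.3 CPM with ibuprofen, without overlap (-0.66 ± 0.23, limma adjusted p = 0.176). It rested on 15 to 49 estimated reads per library. Its log2 fold change was -0.85 with 0.1 and -0.34 with 5 added to CPM in place of 1. Aph1b, another γ-secretase subunit, had 0.30 ± 0.16. Furin, the convertase that first cuts the receptor, had 203 ± 29 and 188 ± 10.6 CPM. Adam10, the sheddase that cuts the bound receptor, was named for its role after its values were seen, and had 149 ± 8.57 and 160 ± 11.5 CPM.

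In the nuclear complex 9 of 13 tested genes had positive and 4 negative fold changes, with a median of 0.054. Maml2, a paralogue of Maml3, had 53.6, 63.2 and 82 CPM untreated, against 96.1, 80.8 and 86.4 CPM with ibuprofen. Ibuprofen replicate 2 lay inside the untreated range, and the log2 fold change was 0.42 ± 0.15 (limma adjusted p = 0.191). The third Mastermind-like gene, Maml1, and Rbpj itself were named for their role after their values were seen. Maml1 had 74.2 ± 2.33 and 80.6 ± 10.9 CPM, and Rbpj 51.4 ± 4.8 and 51.9 ± 0.303 CPM. The acetyltransferase gene Crebbp and the demethylase gene Kdm5a had 0.19 ± 0.10 and 0.23 ± 0.13.

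Genes of receptor turnover and inhibition gave 6 positive and 3 negative fold changes among 9 tested. Numbl, a relative of the Notch inhibitor Numb, had the smallest p of all 45 genes, with 26.6, 26.3 and 25.6 CPM untreated, against 36.1, 30.5 and 45.3 CPM with ibuprofen (0.48 ± 0.15, limma adjusted p = 0.148). The untreated values were close together and the ibuprofen values all above them. The Deltex gene Dtx2 had 60.8, 54 and 49 CPM untreated, against 40.6, 39.3 and 47.4 CPM with ibuprofen (-0.36 ± 0.13, limma adjusted p = 0.189). Nrarp, a Notch target that restrains the complex, had 24.4 ± 3.85 and 20.4 ± 0.826 CPM, and the ubiquitin ligase gene Itch 82.1 ± 10.3 and 83.1 ± 4.27 CPM. Of the other Hes and Hey genes 2 were tested, Hes6 (3.86 ± 0.602 and 5.65 ± 1.11 CPM) and Hes2 (1.08 ± 0.45 and 0.899 ± 0.4 CPM).

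**Figure D3:**
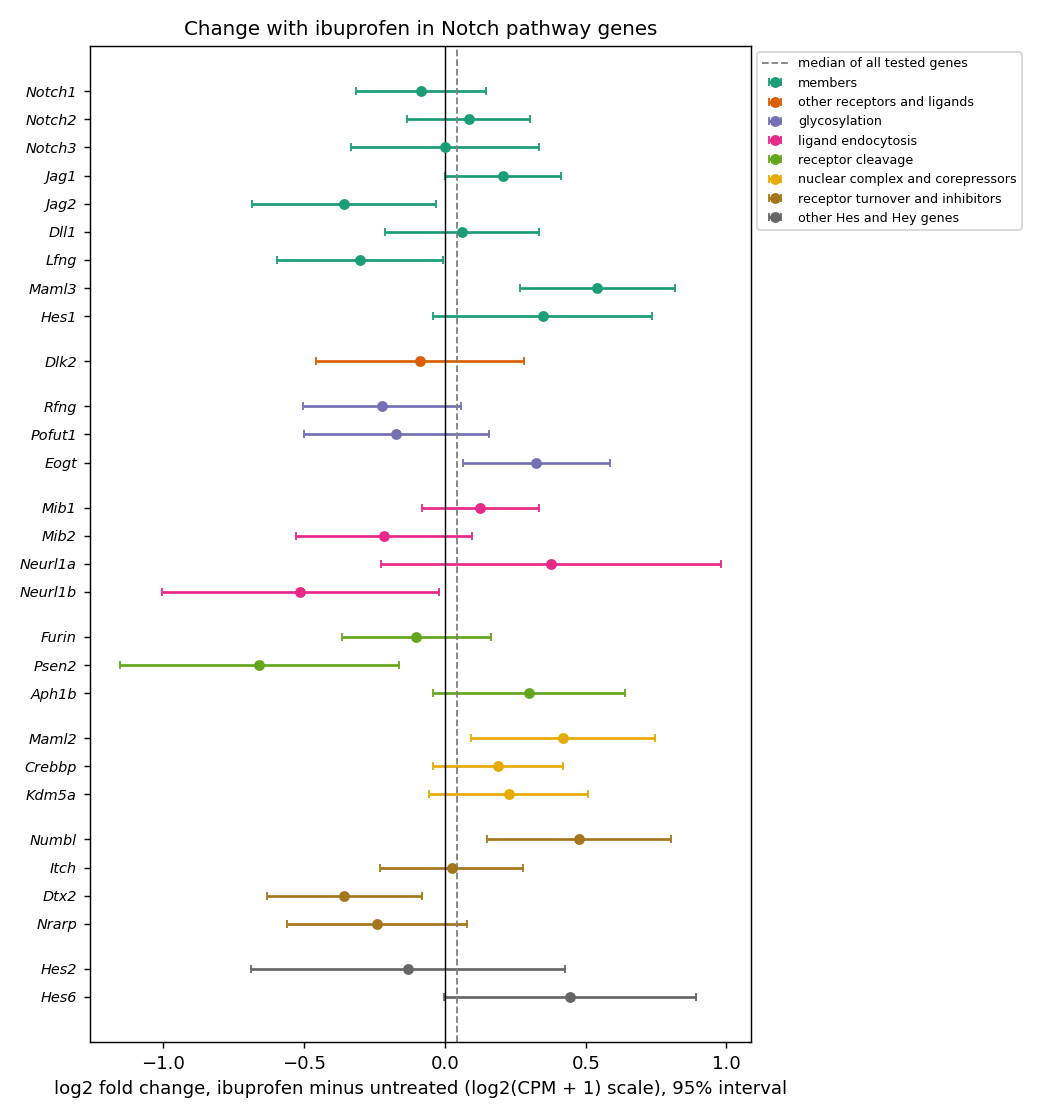
Log2 fold change (ibuprofen minus untreated, from log2(CPM + 1)) with 95% intervals from limma for the 9 tested members and 20 other named pathway genes, coloured by role, and the median of all tested genes (0.043) as a dashed line. Maml3 is farthest to the right (0.54) and Psen2 farthest to the left (-0.66), and none has an adjusted p under 0.05.

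Genes that mark the basal and suprabasal layers, between which Notch is known to act, gave 0 calls among 7 and 10 tested. At an unadjusted limma p under 0.05 there were 3 and 4. Over all tested genes 0.521% were called and 17.9% had such an unadjusted p. The basal list had a median log2 fold change of -0.205, with 3 genes lower and 0 higher without overlap. Over all tested genes 8.73% were lower and 14.2% higher without overlap. Krt15, a basal keratin, had 1762, 1493 and 1301 CPM untreated, against 934, 930.01 and 1042 CPM with ibuprofen (-0.64 ± 0.13, limma adjusted p = 0.0615). The ibuprofen values all lay below the untreated ones. Krt15 was called, with a limma adjusted p of 0.00273 to 0.0441, in 6 of the 17 other settings: library weights, robust shrinkage, the replicate block, GC correction, exon length correction and without untreated replicate 3. Krt14 and Krt5, basal keratins too, had -0.54 ± 0.16 and -0.32 ± 0.14. The suprabasal list had a median of -0.182, with 3 positive and 7 negative fold changes, and 2 genes lower and 1 higher without overlap. Krt1, a differentiation keratin known from skin as a target of Notch activity, had 3.8, 2.2 and 3.75 CPM untreated, against 6.9, 8.35 and 16 CPM with ibuprofen, without overlap (1.37 ± 0.29, limma adjusted p = 0.0674). Krt10, of the same list, overlapped, with 24.8, 53.4 and 24.1 CPM untreated, against 44.6, 32.5 and 40.8 CPM with ibuprofen (0.28 ± 0.26, limma adjusted p = 0.575). The transglutaminase gene Tgm1, which cross-links the cornified envelope, and Grhl3, a regulator of barrier formation, had -0.54 ± 0.14 and -0.38 ± 0.11, and Krt13, the main suprabasal keratin of the oesophagus, 2310 ± 205 and 1910 ± 509 CPM. Krt15, Krt14, Krt5, Krt1, Tgm1 and Grhl3 were called under library weights, and Krt13 was not. Krt1 and Tgm1 were also called under the replicate block, and Krt14 and Tgm1 without untreated replicate 3. For Krt10 the other settings are not given here.

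The 5 members with the largest fold changes kept their sign under all 17 other settings run. Maml3 was called under library weights, under a block on replicate number and without untreated replicate 3, Jag2 under library weights and without untreated replicate 3, and Hes1 under library weights. Of all tested genes 2462 were called under library weights, 434 under the block and 456 without untreated replicate 3, against 87 in the main setting. Jag1 and Lfng were called under none of the 17.

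**Figure D4:**
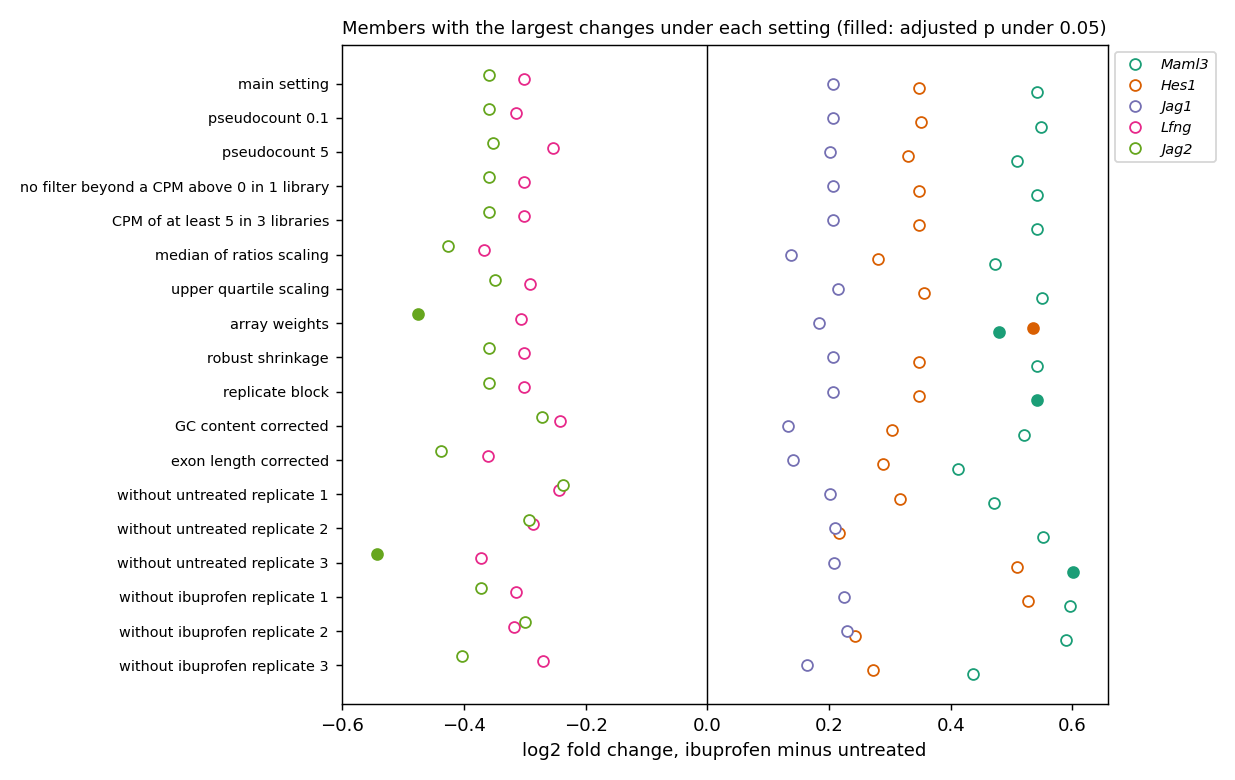
Log2 fold change, ibuprofen minus untreated, of Maml3, Hes1, Jag1, Lfng and Jag2 under the main setting and 17 others, with filled points where the limma adjusted p was under 0.05. Each gene stays on its side of 0, and the filled points belong to Maml3, Jag2 and Hes1.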

How the data were processed

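The authors deposited CPM per gene for 3 untreated and 3 ibuprofen libraries, as the file headers name the unit. Per the submitters' processing notes, the tools were Cell Ranger 3.1.0, edgeR, HTSeq and STAR 2.5.3a, with no role stated, and the builds mm10 and GRCm38. The annotation release and filters were not stated. Values lay on steps, as if reads had been scaled to a total of 20000000 per library and rounded up. Reads were estimated from these steps, which returned at least 99.82% of the values above 0, and served only to describe depth, since no count model was fitted.

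The test was limma (version 3.58.1, R 4.3.3) with a mean-variance trend, applied to log2(CPM + 1) of genes with at least 1 CPM in at least 3 libraries. Alternatives covered pseudocount, filter, scaling, library weights, robust shrinkage, a replicate block, GC and length corrections, and each library left out. Exon lengths, GC content and positions came from GENCODE M21 (GRCm38), which held 16651 of the IDs tested, and promoter windows from RefSeq (GRCm38.p6). Members, lists and settings were chosen with earlier results of these data known. Named genes were all members and, from each other pathway and squamous list, the 3 with the smallest p and the most abundant one, with any called gene. From each marker list the rule took the 2 most abundant genes. Other markers are given as sums, and 2 genes under this rule are not reported here.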

Additional observations from a re-analysis of the deposited data

How the results depend on the processing

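The 9 tested members gave 0 calls in 14 of the 17 alternatives, 3 with library weights, 1 with the replicate block, and 0 to 2 with 1 library left out (2 without untreated replicate 3). The other pathway genes gave 7 calls with library weights, Eogt, Psen2, Maml2, Numbl, Dtx2 and Nrarp among them, and 0 to 1 with 1 library left out (Maml2 without untreated replicate 3). Over all genes there were 52 calls with no filter, 2462 with library weights, 434 with the replicate block, 49 higher and 58 lower after GC correction, 30 higher and 39 lower after length correction, and 4 to 456 with 1 library left out. Leaving out untreated replicates 1, 2 and 3 gave 4, 5 and 456, and leaving out ibuprofen replicates 1 and 3 gave 23 and 44.

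With library weights Maml3 had 0.48, Jag2 -0.48 and Hes1 0.54, all past the threshold, and with the replicate block Maml3 had 0.54 (limma adjusted p = 0.0349). With 1 library left out the log2 fold change ranged from 0.44 to 0.60 for Maml3, -0.54 to -0.24 for Jag2, 0.22 to 0.53 for Hes1, -0.16 to -0.033 for Notch1, 0.026 to 0.13 for Notch2, -0.13 to 0.17 for Notch3, -0.058 to 0.16 for Dll1, -0.25 to 0.047 for Dlk2, -0.062 to 0.12 for Itch and -0.29 to 0.027 for Hes2. Measured against the main value, and not from end to end of the range, it also rose or fell by a factor over 1.5 for Pofut1 (-0.30 to -0.10), Mib1 (0.076 to 0.16), Mib2 (-0.28 to -0.12), Neurl1a (0.11 to 0.60), Neurl1b (-0.72 to -0.22), Furin (-0.22 to -0.032), Aph1b (0.19 to 0.37), Kdm5a (0.079 to 0.34), Nrarp (-0.35 to -0.13) and Krt13 (-0.44 to -0.068). The sign changed for Notch2 after length correction (-0.047), for Notch3 with median-of-ratios scaling (-0.067), library weights (-0.12) and length correction (-0.10), and for Dll1 with median-of-ratios scaling (-0.0065), all from values within 0.1 of 0. It also changed for Mib1 after GC (-0.027) and length correction (-0.0085), and for Itch with median-of-ratios scaling (-0.044), GC (-0.15) and length correction (-0.10). The cause was not tested. The labels do not say whether equal replicate numbers are paired. Deviations from the group mean correlated at 0.00017, 0.08 and 0.15 for equal numbers and at -0.14 to 0.097 for unequal ones. Not every library correlated best with its own number. With 3 libraries per group these values cannot show whether the libraries were paired. Per kb of the longest transcript the untreated level was 39.6 CPM for Notch1, 29.1 for Jag1, 56.5 for Jag2, 27.4 for Dll1, 6.32 for Maml3 and 46.9 for Hes1, since fewer bases are counted. Depth limits Hey1, at 5 to 16 estimated reads.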

Other observations

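The ratio of Jag2 to Jag1 within a library does not depend on the scaling of that library, and was computed after the values of both genes had been seen, so it carries no test. Jag2 had 2.07, 1.89 and 1.34 times the CPM of Jag1 in untreated replicates 1, 2 and 3, and 1.23, 1.12 and 1.18 times in the ibuprofen replicates. All ibuprofen libraries lay below all untreated ones, with untreated replicate 3 closer to the ibuprofen libraries than to the other untreated ones. Per kb of merged exons the ratio was 1.73, 1.58 and 1.12 untreated and 1.03, 0.936 and 0.987 with ibuprofen. The summed CPM of Jag1, Jag2 and Dll1 overlapped between the groups, at 603, 568 and 477 untreated and 508, 475 and 556 with ibuprofen. The 2 Jagged transcripts differ in GC content, 48.8% for Jag1 and 61.9% for Jag2, and its part in the ratio was not tested.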
